A study of Mus musculus with 12 samples.

Results

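Collagens are the main structural proteins of the extracellular matrix, and each collagen molecule is built from chains encoded by separate genes. The collagen chain genes described here are the rows of the deposited expression table whose symbol has the form Col, a type number, the letter a and a chain number. There were 44 such genes among 24255 in the table. By type number, 11 encode fibrillar chains (types I, II, III, V, XI, XXIV and XXVII), 8 encode chains of basement membrane collagens (types IV, XV and XVIII), and 25 encode chains of the remaining types.

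The study sequenced polyadenylated RNA of whole ovaries from C57BL/6 mice aged 6 months. The 7 samples of the WT group are labelled wild type. The 5 samples of the CKO group carry a conditional deletion of Mtor, the kinase at the centre of the mTOR growth pathway, made with Gdf9-Cre, which is driven by the promoter of the oocyte growth factor gene Gdf9 and so acts in oocytes while the other cells of the ovary keep the gene. Mice of both groups had been primed with 5 IU of PMSG (eCG), a gonadotropin that stimulates follicle growth, and ovaries were collected 46 hours later. The labels do not say whether the wild-type mice carried a floxed allele or Cre, whether an ovary sample comes from 1 animal, or which Mtor exons were removed, and the p-values below measure only the spread between these samples, which may in part be technical.

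A collagen chain is hydroxylated and folded in the endoplasmic reticulum, joins other chains in a triple helix, and is secreted and assembled outside the cell. Fibrillar collagens form the tensile fibrils of the ovarian stroma and capsule. Type IV collagen forms the sheet-like network of basement membranes, including the membrane that encloses each follicle and separates its granulosa cells from the vascular theca. Type VI collagen forms beaded microfilaments at the border between cells and fibrils.

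Expression is given as FPKM, a fragment level scaled to the depth of the library and to the length of the transcript, so levels of different genes can be compared. Steps between low values put 1 fragment on a transcript of 1 kb at 0.303 to 0.64 FPKM across the 12 libraries, a 2.11-fold range of depth, and 14945 to 16083 genes were above 0. Mtor itself had 4.7 ± 0.702 FPKM (SD, n = 7) in WT and 5.02 ± 0.499 (SD, n = 5) in CKO, with an exact two-sided permutation p of 0.4053 over 792 splits, and a whole-ovary value of this gene does not check a deletion confined to oocytes. Marker lists of other ovarian cells differed between the genotypes. The summed level of 6 granulosa cell markers was 3178 to 5788 FPKM in WT and 1269 to 2305 in CKO, and that of 6 oocyte markers was 61.5 to 205 against 5.23 to 50.3, with all 6 members of each list lower in CKO. The 6 macrophage markers summed to 28.5 to 76.5 FPKM in WT and 118 to 378 in CKO (5 of 6 higher), and the 6 mast cell markers to 8.17 to 19.2 and 62.4 to 269 (5 of 6 higher). The 5 stromal fibroblast markers summed to 212 to 328 and 326 to 410 FPKM (2 of 5 higher), and the 6 endothelial markers to 91.7 to 185 and 166 to 298 (2 of 6 higher). Over all genes, 8.7% were called higher and 7.59% lower in the test described below. Oviduct markers summed to 263 and 84.8 FPKM in CKO 2 and CKO 3 and to at most 2.22 in every other library. Blood markers were highest in CKO 1 (320 FPKM) and CKO 5 (328), with 259 in WT 1. In bulk tissue, fewer cells of a type and less RNA per cell cannot be told apart, and the part of these cell types in the collagen values was not tested.

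Of the 44 collagen chain genes, 28 reached 1 FPKM in at least 5 of the 12 libraries and were tested with limma on log2(FPKM + 1), with Benjamini-Hochberg adjustment over 13168 genes and a threshold of 0.05. In CKO ovaries, 4 of the 28 were higher (Col6a5, Col6a4, Col8a2 and Col4a6) and 3 were lower (Col18a1, Col9a2 and Col11a1). These 7 are 25% of the tested chains, against 16.3% of all tested genes. Taken by direction, 14.3% of the chains were higher, against 8.7% of all genes, and 10.7% were lower, against 7.59%. The median log2 difference, CKO minus WT, was 0.16 over the 28 chains and -0.01 over all genes tested, with 18 chains above 0 and 10 below. In 3 chains (Col6a5, Col8a2 and Col9a2) no CKO library overlapped the WT range, which is 10.7% of the chains, against 7.73% of all genes. Before adjustment, 16 of the 28 chains and 3974 of the 13168 genes had a limma p under 0.05.

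Without CKO 2 and CKO 3, the libraries with oviduct markers, 3 chains were higher (Col6a5, Col6a4 and Col3a1) and 0 lower in the same limma test. Without CKO 1 and CKO 5, the CKO libraries with the most blood markers, 6 were higher and 1 was lower. Both fits hold fewer CKO libraries. Chains called higher rose from 4 to 6 without CKO 1 and CKO 5. Calls over all genes fell in both fits, from 1145 higher and 999 lower. They were 941 and 714 without CKO 2 and CKO 3, and 702 and 673 without CKO 1 and CKO 5. Why calls of chains changed was not tested. Leaving out single libraries gave 3 to 7 higher and 1 to 3 lower, with the highest count, 7, without CKO 5 and the lowest number lower, 1, without WT 1, WT 2, CKO 1 or CKO 5. Dividing each library by its own FPKM sum moved the median of all genes to -0.10 and the split over all genes from 1145 higher and 999 lower to 829 and 1433, and it gave 3 chains higher and 4 lower, with Col4a6 no longer called (adjusted p = 0.0896) and Col4a2 called lower.

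**Figure D1:**
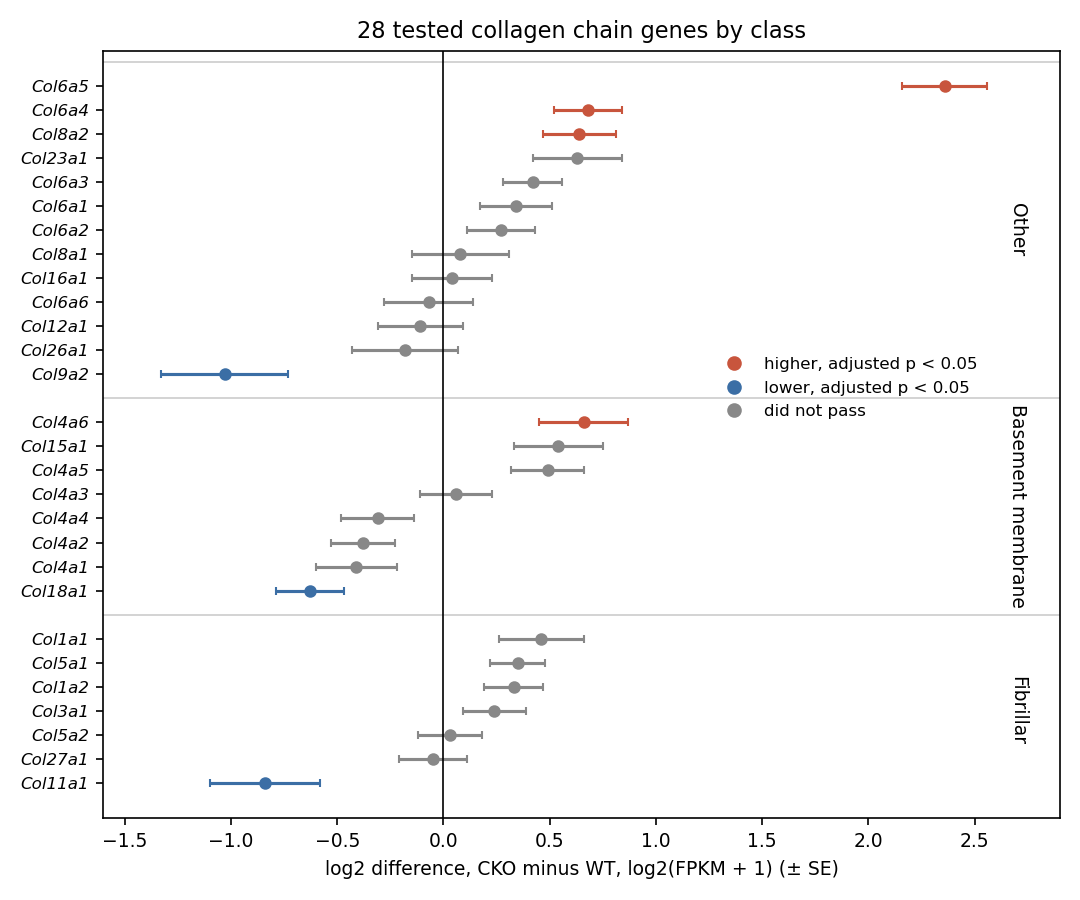
Log2 difference, CKO minus WT, on the log2(FPKM + 1) scale (horizontal axis, with the standard error as bars) for the 28 tested collagen chain genes, grouped by class. Red points were called higher and blue points called lower (limma, threshold 0.05 after adjustment); Col6a5 stands furthest from 0 at 2.36, and the basement membrane chains lie on both sides of 0, from -0.63 to 0.66.

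Col6a5 had the widest difference of any collagen chain gene. It encodes a long chain of type VI collagen that can take the place of the Col6a3 product beside the products of Col6a1 and Col6a2. In WT libraries it lay between 0.702 and 2.42 FPKM with a median of 1.62, and in CKO 1 to CKO 5 it was 8.59, 19.0, 13.1, 9.36 and 12.1 FPKM. The lowest CKO library was thus above the highest WT library. The group means were 1.58 ± 0.535 FPKM (SD, n = 7) and 12.4 ± 4.1 (SD, n = 5), a 7.88-fold ratio, and the log2 difference was 2.36 (SE 0.20, limma adjusted p = 4.46e-05). Without CKO 2 and CKO 3 the difference was 2.11 (limma adjusted p = 0.000484). The part of oviduct tissue in the Col6a5 values was not tested. Col6a5 and Col6a6 share 3.42% and 3.54% of the 50-base words of their transcripts, so only a small part of their fragments could match both genes.

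Col6a4, which encodes the neighbouring long type VI chain, was higher as well. WT libraries held 8.79 to 13.6 FPKM (median 9.54), and the CKO libraries in order held 16.8, 22.9, 13.3, 23.0 and 13.8. Only CKO 3, at 13.3, fell inside the WT range. Its log2 difference was 0.68 (SE 0.16, limma adjusted p = 0.0126), and every leave-one-out fit called it, with adjusted p up to 0.0359.

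Col6a6, the last gene of this cluster, did not pass the test. Its WT libraries lay at 1.32 to 2.82 FPKM and its CKO libraries at 1.02 to 3.03, so the groups overlapped over nearly the whole range, and the log2 difference was -0.07 (SE 0.21, limma adjusted p = 0.857). The 3 long-chain genes lie side by side on chromosome 9 on the minus strand (GRCm38, the assembly of mm10). Col6a4 is at chr9:105989454-106096783, Col6a5 at chr9:105856078-105960643 and Col6a6 at chr9:105687809-105828160. Their start sites are 136048 bases (Col6a4 to Col6a5) and 132558 bases (Col6a5 to Col6a6) apart.

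The stretches just before the start sites of these neighbours are shown because the 3 genes differ in level and in response. Each is taken from the 250 bases upstream of the RefSeq start (GRCm38.p6), read 5′ to 3′ on the gene's strand, and ends where the GENCODE gene begins if that lies further upstream. Capitals mark matches on either strand to the letters of common promoter elements. The GC box was searched as GGGCGG, which is known to bind Sp1. The CCAAT box, bound by NF-Y in many genes, was searched by its own letters. The TATA box was searched as TATAAA, and the Smad-type element of TGF-beta signalling as CAGAC. No matches overlap.
Col6a4 (chr9:106096784-106096941): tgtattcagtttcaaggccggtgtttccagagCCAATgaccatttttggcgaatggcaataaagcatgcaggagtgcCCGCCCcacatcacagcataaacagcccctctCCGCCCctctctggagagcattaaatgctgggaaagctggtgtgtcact
Col6a5 (chr9:105960644-105960893): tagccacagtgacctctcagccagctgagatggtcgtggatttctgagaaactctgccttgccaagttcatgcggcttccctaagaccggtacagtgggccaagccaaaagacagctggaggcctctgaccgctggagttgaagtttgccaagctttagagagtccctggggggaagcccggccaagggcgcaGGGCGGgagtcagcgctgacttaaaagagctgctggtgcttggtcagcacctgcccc
Col6a6 (chr9:105828161-105828335): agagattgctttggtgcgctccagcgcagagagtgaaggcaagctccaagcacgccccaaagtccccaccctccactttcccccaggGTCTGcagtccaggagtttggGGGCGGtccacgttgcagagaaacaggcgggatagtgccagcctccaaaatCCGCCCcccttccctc

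Counted from the RefSeq start, Col6a4 has a CCAAT match at -218 and GC boxes at -173 and -141, Col6a5 has a GC box at -57, and Col6a6 has GC boxes at -142 and -91 and a Smad-type match at -163. None of the 3 windows holds TATAAA. Over all 32851 RefSeq mouse promoter windows of 250 bases, 32.7% hold the GC box, 33.8% CCAAT, 12.4% TATAAA and 42.2% CAGAC. A match is a run of letters and not a shown binding site. Promoter entries were matched by symbol for 35 of the 44 collagen chain genes.

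Of the partner chains of type VI collagen, Col6a1 and Col6a2 had the highest means of all chains over the 12 libraries (156 and 82.7 FPKM). Col6a2 was only just above Col1a2 (81.5), and Col6a3 ranked 8 (18.9). Col6a1, the first chain, had the highest mean of all, 139 ± 23.2 FPKM (SD, n = 7) in WT and 180 ± 51.4 (SD, n = 5) in CKO. The CKO libraries in order held 132, 198, 175, 257 and 136 FPKM against 115 to 168 (median 125) in WT, so CKO 2, CKO 3 and CKO 4 were above the WT range and the others within it. Its log2 difference was 0.34 (SE 0.17, limma adjusted p = 0.191). Col6a2, the second chain, had 75.2 ± 10.2 and 93.1 ± 27.8 FPKM and a log2 difference of 0.27 (SE 0.16, adjusted p = 0.267). Col6a3, the common partner chain of both, had 12.9 to 21.0 FPKM (median 16.7) in WT and 25, 21.6, 18.4, 28 and 18.3 in CKO 1 to CKO 5, a log2 difference of 0.42 (SE 0.14, adjusted p = 0.0588) that passed without WT 1 (adjusted p = 0.0384).

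As a description, the makeup of the chains that can join them differed. Of the summed FPKM of Col6a3, Col6a4, Col6a5 and Col6a6, Col6a5 made up 5.17% ± 1.66 (SD, range 2.21% to 6.85%) in the 7 WT libraries and 23% ± 6.74 (range 14.7% to 28.6%) in the 5 CKO libraries. Col6a3 made up 53.2% ± 2.78 and 41% ± 5.83, Col6a4 34.7% ± 3 and 32.5% ± 3.06, and Col6a6 6.96% ± 2.47 and 3.5% ± 1.06. The sum itself was 30.8 ± 4.32 FPKM in WT and 54.6 ± 9.7 in CKO. No test was made of these shares, since they rest on the same values as the gene tests.

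**Figure D2:**
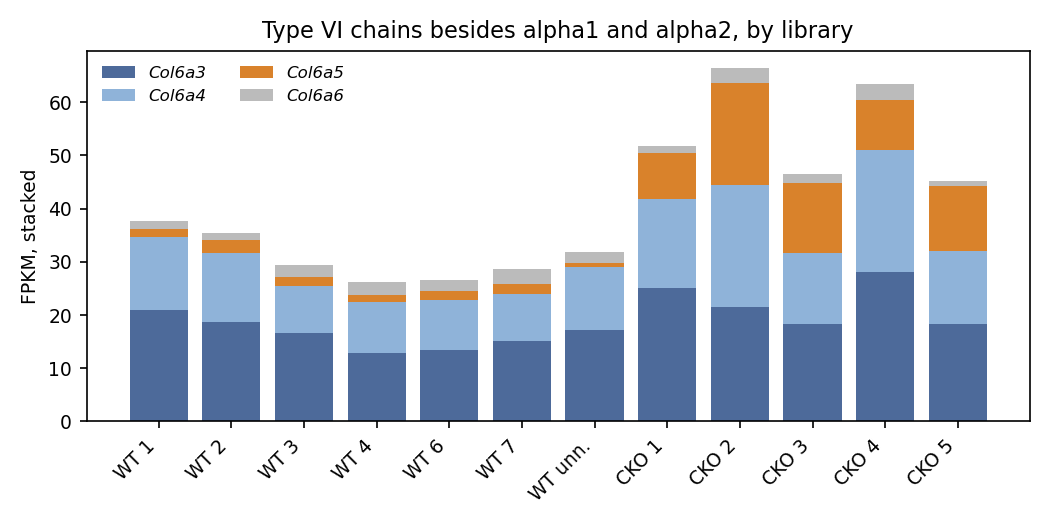
FPKM of Col6a3, Col6a4, Col6a5 and Col6a6 stacked in each of the 12 libraries (vertical axis, FPKM; WT unn. is the WT library without a number). Every CKO bar is taller than every WT bar, 45.2 to 66.3 FPKM against 26.2 to 37.6, and Col6a5 takes 14.7% to 28.6% of the CKO bars.

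Type VIII collagen forms short-chain networks in vessel walls and in the membrane under corneal endothelium. Col8a2 lay at 2.63 to 5.6 FPKM (median 4.45) in WT and at 5.93, 7.55, 6.77, 8.43 and 6.72 in CKO 1 to CKO 5, with no overlap. Its log2 difference was 0.64 (SE 0.17, limma adjusted p = 0.0174), and each leave-one-out fit called it, with adjusted p up to 0.0462. The call was lost without CKO 2 and CKO 3 (0.62, adjusted p = 0.0701). Its partner Col8a1 did not pass, with 3.05 ± 0.799 and 3.44 ± 1.38 FPKM, a log2 difference of 0.08 and an SE of 0.23. The log2 ratio of Col8a2 to Col8a1 was 0.38 ± 0.30 in WT and 0.93 ± 0.54 in CKO, a difference that did not pass over the pairs compared (exact permutation p = 0.0265, adjusted p = 0.0689).

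Of the other chains outside the fibrillar and basement membrane classes, Col9a2 was lower. It encodes a chain of type IX collagen, which coats type II fibrils in cartilage. WT libraries ran from 1.66 to 9.28 FPKM (median 2.31), and CKO 1 to CKO 5 held 1.17, 1.16, 1.37, 0.523 and 0.917 FPKM. The groups did not overlap, but the WT libraries were widely spread, with the unnumbered WT library at 9.28 and the next at 4.18. The log2 difference was -1.03 (SE 0.30, limma adjusted p = 0.0311). It was -0.81 (adjusted p = 0.0227) without the unnumbered library, and the call was lost when WT 1, WT 2, CKO 1, CKO 4 or CKO 5 was left out (adjusted p 0.0525 to 0.0742). Its values rest on about 3 to 72 fragments per library. The other type IX chains were at or near 0, with Col9a1 listed at 0 in all 12 libraries and Col9a3 at no more than 0.668 FPKM. The 6 cartilage markers summed to 2.95 to 6.09 FPKM in WT and 4.37 to 10.7 in CKO, with Matn1 listed at 0 in all libraries. Of the 3 cartilage markers tested, 1 was higher and 0 lower, against 8.7% and 7.59% of all genes. Their part in the Col9a2 values was not tested.

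Col23a1, a transmembrane collagen, lay at 0.775 to 1.67 FPKM in WT and at 2.82, 2.77, 1.72, 4.39 and 1.2 in CKO 1 to CKO 5. CKO 5 was the only CKO library inside the WT range. The log2 difference of 0.63 (SE 0.21, limma adjusted p = 0.0585) passed only when CKO 5 was left out among the single-library fits (0.79, adjusted p = 0.0216). Col12a1, Col16a1 and Col26a1 had log2 differences of -0.11, 0.04 and -0.18 and did not pass.

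**Figure D3:**
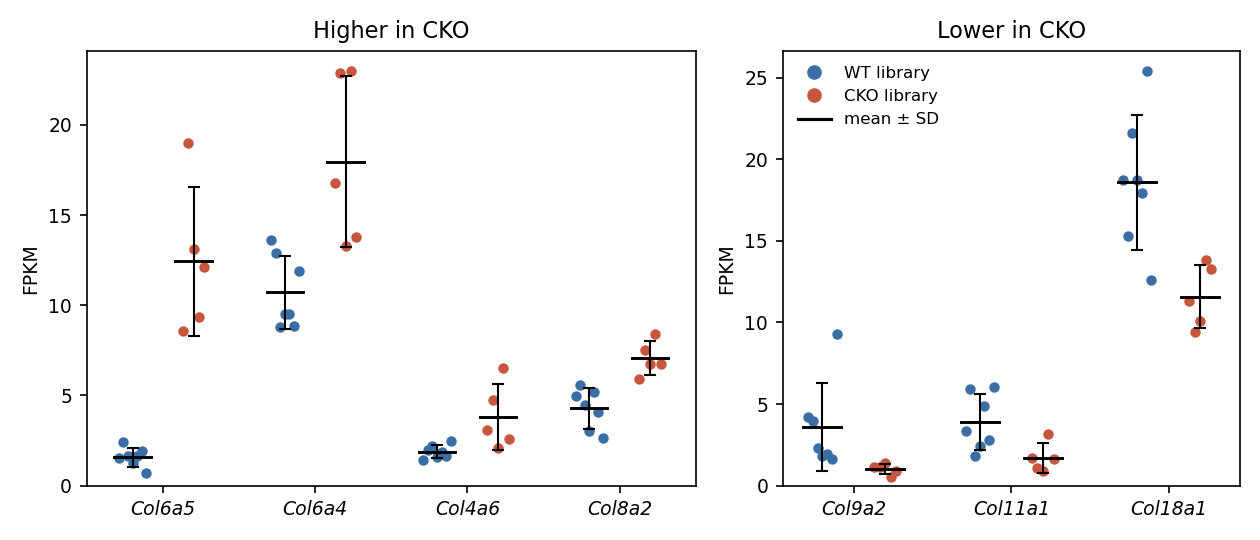
FPKM (vertical axes, linear, from 0) of the 4 collagen chain genes higher and the 3 lower in CKO. Each point is 1 library (7 WT in blue, 5 CKO in red), and the black lines are the mean and SD; Col6a5, Col8a2 and Col9a2 show no overlap between the genotypes, and 1 WT library stands apart for Col9a2 at 9.28.

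The basement membrane chains did not move in 1 direction, with 1 of 8 higher, 1 lower and a median log2 difference of -0.12. These counts are 12.5% each way, against 8.7% higher and 7.59% lower over all genes. Col18a1, whose chain carries the endostatin fragment at its end, was lower. WT libraries held 12.6 to 25.4 FPKM (median 18.7), and CKO 1 to CKO 5 held 11.3, 9.41, 10.1, 13.8 and 13.3. The unnumbered WT library, at 12.6, lay inside the CKO range, and all others of the group were above it. The means were 18.6 ± 4.14 FPKM (SD, n = 7) and 11.6 ± 1.93 (SD, n = 5), and the log2 difference was -0.63 (SE 0.16, limma adjusted p = 0.0139). All 12 leave-one-out fits called it, with adjusted p up to 0.0379, while it missed the threshold without CKO 2 and CKO 3 (-0.48, adjusted p = 0.1) and in the exact Wilcoxon test (adjusted p = 0.0682). Marker lists of several cell types differed between the genotypes in both directions, as given above, and their part in the Col18a1 values was not tested.

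Col15a1, the close relative of Col18a1, went the other way without passing. It lay at 6.57 to 10.3 FPKM (median 8.16) in WT and at 8.50, 20.5, 13.1, 17.0 and 8.39 in CKO, so CKO 1 and CKO 5 were within the WT range and the others above it. The log2 difference was 0.54 (SE 0.21, limma adjusted p = 0.0912), and it passed without CKO 1 (0.68, adjusted p = 0.046) or without CKO 5 (0.68, adjusted p = 0.044). In the authors' deposited table its q-value is 0.0006. The log2 ratio of Col18a1 to Col15a1 was 1.03 ± 0.42 in WT and -0.14 ± 0.65 in CKO, so the more abundant of the pair was Col18a1 in every WT library, where the lowest ratio was 0.32, and the ratio ran from -1.04 to 0.61 in CKO. That difference of -1.17 had an exact permutation p of 0.0076 and an adjusted p of 0.0657 over 13 ratios.

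Col4a1 and Col4a2 encode the chains of the common type IV network, and both were among the 6 most abundant collagens. Col4a1 lay at 68.5 to 106 FPKM (median 74.6) in WT and at 77.7, 35.3, 44.2, 75.9 and 75.3 in CKO, so only CKO 2 and CKO 3, which also hold the oviduct markers, were below the WT range. Col4a2 showed the same libraries low, with 40.8 to 67.1 FPKM in WT and 45.5, 29.7, 30.5, 50.5 and 43.0 in CKO. The part of oviduct tissue in the Col4a1 and Col4a2 values was not tested. The log2 differences were -0.41 (SE 0.19, limma adjusted p = 0.164) and -0.38 (SE 0.15, adjusted p = 0.0955), and Col4a2 passed without CKO 4 (-0.48, adjusted p = 0.0495) and when libraries were divided by their FPKM sum (-0.49, adjusted p = 0.0293). The log2 ratio of Col4a2 to Col4a1 was -0.61 ± 0.10 in WT and -0.58 ± 0.22 in CKO (exact permutation p = 0.7652). These genes are transcribed away from each other and their annotated ends overlap, with start sites 21 bases apart, and the use of strand in the authors' counting is not given.

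Col4a6 and Col4a5 form another such pair, on chromosome X, with start sites 1343 bases apart. Their chains make the type IV network found around smooth muscle and some epithelia. Col4a6 was higher, with 1.44 to 2.50 FPKM (median 1.88) in WT and 3.06, 4.73, 2.07, 6.52 and 2.61 in CKO 1 to CKO 5. CKO 3 was the only CKO library inside the WT range. Its log2 difference was 0.66 (SE 0.21, limma adjusted p = 0.0442), close to the threshold, and 9 of 12 leave-one-out fits lost the call: every WT library but the unnumbered one, CKO 1, CKO 2 or CKO 4 (0.48, adjusted p = 0.111, without CKO 4). The 6 smooth muscle and pericyte markers summed to 262 to 469 FPKM in WT and to 830, 284, 307, 640 and 704 in CKO 1 to CKO 5. Of these 6 markers, 0 were called higher or lower, and their part in the Col4a6 values was not tested.

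Col4a5 lay at 5.70 to 10.8 FPKM (median 6.87) in WT and at 9.13, 15.1, 10.8, 11.5 and 7.62 in CKO. Its difference of 0.49 (SE 0.17, limma adjusted p = 0.0711) passed without WT 2 (0.57, adjusted p = 0.0307) or CKO 5 (0.59, adjusted p = 0.0402). The authors' deposited table gives it a q-value of 0.00838. The log2 ratio of Col4a6 to Col4a5 was -1.52 ± 0.22 in WT and -1.35 ± 0.44 in CKO, and that difference did not pass (exact permutation p = 0.3472).

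The stretches before these divergent start sites, read and marked as above, are the following.
Col4a5 (chrX:141475169-141475384, plus strand): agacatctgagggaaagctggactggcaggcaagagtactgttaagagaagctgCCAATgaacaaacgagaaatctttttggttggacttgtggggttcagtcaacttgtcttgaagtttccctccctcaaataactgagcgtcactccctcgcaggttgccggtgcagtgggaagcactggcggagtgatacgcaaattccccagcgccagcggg
Col4a6 (chrX:141474077-141474326, minus strand): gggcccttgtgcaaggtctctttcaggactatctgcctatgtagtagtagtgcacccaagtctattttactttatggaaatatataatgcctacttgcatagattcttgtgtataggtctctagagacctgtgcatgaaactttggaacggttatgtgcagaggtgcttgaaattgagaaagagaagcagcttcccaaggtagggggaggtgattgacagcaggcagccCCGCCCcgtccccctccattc

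Col4a5 has a CCAAT match at -196, and a GC box at -30 that lies past the end of the printed stretch, and Col4a6 has a GC box at -21. Neither holds TATAAA or CAGAC within its window of 250 bases.

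Col4a3 and Col4a4, which encode the chains that join the Col4a5 product in kidney and other specialised basement membranes, were the lowest of the tested chains on average, at 1.08 ± 0.302 and 1.89 ± 0.345 FPKM in WT and 1.17 ± 0.303 and 1.36 ± 0.487 in CKO. Neither passed, with log2 differences of 0.06 (SE 0.17) and -0.31 (SE 0.17). Over all 13 chain ratios compared, 0 passed after adjustment by exact permutation and 5 had an unadjusted p under 0.05: Col18a1 to Col15a1, Col4a4 to Col4a3, Col4a5 to Col4a3, Col4a5 to Col4a1 and Col8a2 to Col8a1. Without WT 2, all 5 of these passed.

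The fibrillar chains that make up the bulk of stromal fibrils did not pass the test, although 5 of 7 had a positive difference. Col1a2 lay at 59.4 to 92.9 FPKM (median 71.3) in WT and at 94.9, 77.7, 83.4, 122 and 85.9 in CKO, a log2 difference of 0.33 (SE 0.14, limma adjusted p = 0.12). CKO 1 and CKO 4 were above the WT range. Col1a1, its partner in type I collagen, had 19.8 ± 4.31 FPKM (SD, n = 7) and 28.5 ± 9.73 (SD, n = 5) with CKO 3 at 35.0 and CKO 4 at 41.3, a log2 difference of 0.46 (SE 0.20, adjusted p = 0.127). The authors' deposited table gives Col1a1 a q-value of 0.0077.

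Col3a1, the fibrillar collagen of soft tissue, lay at 57.3 to 83.9 FPKM in WT and at 94.6, 49.0, 88.4, 88.3 and 80.8 in CKO. CKO 2 was the lowest of all 12 libraries and CKO 1, CKO 3 and CKO 4 were above the WT range. The log2 difference was 0.24 (SE 0.15, limma adjusted p = 0.305) with all libraries and 0.41 (adjusted p = 0.0204) without CKO 2. Col5a1, a type V chain that starts and limits fibrils, had 11.8 ± 2.16 and 15.2 ± 1.8 FPKM and a log2 difference of 0.35 (SE 0.13, adjusted p = 0.0862), which passed with the unnumbered WT library left out (0.41, adjusted p = 0.0332). Col5a2 and Col27a1 had differences of 0.03 and -0.05.

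Col11a1, a type XI chain best known from cartilage, was the only fibrillar chain called, and it was lower. WT libraries held 1.82 to 6.06 FPKM (median 3.36) and CKO 1 to CKO 5 held 1.67, 1.09, 0.906, 3.18 and 1.65, so CKO 4 lay inside the WT range. Its log2 difference was -0.84 (SE 0.26, limma adjusted p = 0.0428). The call was lost in 8 of 12 leave-one-out fits, without WT 1, WT 2, WT 6, the unnumbered WT library, CKO 1, CKO 2, CKO 3 or CKO 5 (adjusted p 0.0653 to 0.109). Its partner Col11a2 was under the filter, at no more than 0.898 FPKM, and Col2a1, the main cartilage chain, at no more than 0.0709.

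Summed over their members, fibrillar chains held 191 ± 26.6 FPKM (SD, n = 7) in WT and 234 ± 40.7 (SD, n = 5) in CKO, basement membrane chains 170 ± 23.6 and 144 ± 27.6, and the others 272 ± 35.4 and 355 ± 88.1. As shares of all collagen FPKM, basement membrane chains made up 27% ± 3.63 in WT (22.8% to 33.6%) and 19.8% ± 3.28 in CKO (16.4% to 24%), so the groups overlapped slightly. The shares of fibrillar chains were 30.1% ± 3.29 and 32.1% ± 3.97. All 44 genes summed to 557 to 662 FPKM in WT and to 701, 682, 686, 957 and 635 in CKO 1 to CKO 5. CKO 4 stood above the rest and was the highest CKO library for 16 of the 28 tested chains, while CKO 5 was the lowest for 10. The 6 most abundant genes, Col6a1, Col6a2, Col1a2, Col3a1, Col4a1 and Col4a2, carried most of these sums.

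**Figure D4:**
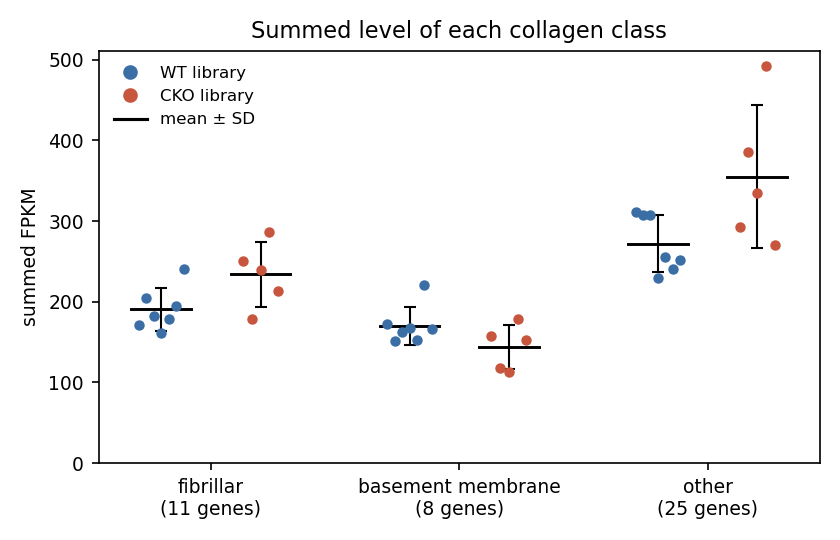
Summed FPKM (vertical axis, linear, from 0) of the fibrillar (11 genes), basement membrane (8) and other (25) collagen chain genes in each library, with the mean and SD in black. The genotypes overlap in every class, and CKO 4 is the highest point of the other chains at 492 FPKM.

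The 16 collagen chain genes under the filter were low in every library. Col5a3 reached 1.90 FPKM, Col13a1 1.65 and Col22a1 1.21, and the other 13 stayed below 1. Among them were the epidermal collagens Col7a1 and Col17a1 and the growth plate collagen Col10a1, at no more than 0.179, 0.267 and 0.495 FPKM.

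In the authors' deposited table, 8 of the 44 chains have a q-value under 0.05, 7 higher and 1 lower in CKO. The share of all genes under that cut-off is not given here, so these counts are a description only. The chains called in both are 4: Col6a5, Col6a4, Col8a2 and Col18a1. For the other 3 called here, Col4a6, Col9a2 and Col11a1, that table lists a p-value of exactly 1, as it does for 10 of the 28 tested chains. It does so for every chain with a mean up to 3.35 FPKM over the 12 libraries and for none from 5.36 FPKM up. Col9a2 is among them with a deposited log2 ratio of -1.81. Such an entry can stand for a gene left untested, so it is not read as a result.

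Genes that act on or with collagen were described from 5 lists holding 85 genes. Of the 69 tested, 18 were higher and 5 lower in CKO, or 26.1% and 7.25%, against 8.7% and 7.59% of all genes, and the median log2 difference was 0.15. These counts include Adamts3 and Gldn, which reached 1 FPKM in 1 genotype alone and so had to differ once they were tested. Without CKO 2 and CKO 3, 13 were higher and 3 lower, and without CKO 3 alone 3 were lower. Without CKO 1 and CKO 5, 12 were higher and 4 lower. CKO 1 and CKO 5 have the most blood markers of the CKO group and the highest macrophage sums (378 and 334 FPKM). Lair1, Ogn, Aspn, Colec12, Msr1, C1qa, C1qb, C1qc and Fkbp14 lost their calls in that fit (limma adjusted p 0.0661 to 0.131). With fewer CKO libraries, calls over all genes fell too, from 1145 higher and 999 lower with all libraries. They were 941 and 714 without CKO 2 and CKO 3, and 702 and 673 without CKO 1 and CKO 5. Why the listed genes lost their calls was not tested. With each library divided by its FPKM sum, 12 genes of the lists were higher and 6 lower. Ddr2, Lair1, Timp2, Ogn, Prelp and Colec12 then missed the limma threshold (adjusted p 0.0513 to 0.156).

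Among the enzymes and chaperones that modify and assemble collagen, 2 of 28 tested were higher and 4 lower, with a median difference of 0.00. That is 7.14% higher and 14.3% lower, against 8.7% and 7.59% of all genes. The 4 lower genes act in the endoplasmic reticulum. P3h1, a prolyl 3-hydroxylase, had 19.7 to 28.7 FPKM in WT and 15.4, 13.8, 14.7, 15.9 and 16.6 in CKO, with no overlap (-0.61, SE 0.10, limma adjusted p = 0.00117). P3h4, a partner of lysyl hydroxylase, had 93 ± 23.3 and 43.1 ± 16.7 FPKM (-1.14, SE 0.23, adjusted p = 0.00387). The prolyl isomerases Fkbp10 (-0.54, adjusted p = 0.0199) and Fkbp14 (-0.36, adjusted p = 0.0456) were also lower, Fkbp10 not without CKO 3 (adjusted p = 0.0577) and Fkbp14 only in the fits without the unnumbered WT library or CKO 1 (adjusted p up to 0.112 in the other leave-one-out fits).

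The 2 higher genes act outside the cell. Adamts3, a procollagen N-proteinase, had 0.065 to 0.781 FPKM in WT and 2.64, 2.2, 2.55, 2.77 and 2.03 in CKO. It entered the test only through its 5 CKO libraries, the only ones that reached 1 FPKM, so its call is a description of these values and no support. Loxl1, a cross-linking enzyme best known for elastin, had 26.4 ± 9.15 and 51.4 ± 7.97 FPKM (0.99, SE 0.21, adjusted p = 0.00511). Serpinh1, the collagen chaperone HSP47, had 602 ± 69.5 FPKM in WT and 527 ± 66.1 in CKO and did not pass (adjusted p = 0.313), and the cross-linking enzyme Lox did not either (adjusted p = 0.63).

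Among the collagen receptors, 3 of 7 tested were higher (42.9%, against 8.7% of all genes) and 0 lower (against 7.59%). Mrc2, which takes up collagen fragments, lay at 5.93 to 9.69 FPKM in WT and at 13.7, 10.6, 11.7, 15.4 and 9.69 in CKO (0.65, SE 0.15, limma adjusted p = 0.00854). Ddr2, a receptor kinase for fibrillar collagen, held 18.9 to 21.5 FPKM in WT and 22.7, 39.2, 27.8, 30.0 and 22.1 in CKO (0.42, SE 0.13, adjusted p = 0.0348), and Lair1, an inhibitory receptor of immune cells, had 3.96 ± 2.06 and 7.45 ± 1.65 FPKM (0.85, SE 0.26, adjusted p = 0.0396). Ddr2 lost its call without WT 1, WT 2, WT 3, WT 4, WT 7, CKO 2, CKO 3 or CKO 4 (adjusted p up to 0.0769), and Lair1 without WT 1, WT 2, WT 3, WT 4, CKO 2, CKO 3, CKO 4 or CKO 5 (up to 0.0997). Itga1, a collagen-binding integrin subunit, had a difference of -0.45 (adjusted p = 0.0927).

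Of the genes of collagen degradation and its inhibitors, 1 of 7 tested was higher (14.3%, against 8.7% of all genes) and 0 lower (against 7.59%). That gene was Timp2, a metalloproteinase inhibitor, with 121 ± 26.1 and 175 ± 29.1 FPKM (0.54, SE 0.15, limma adjusted p = 0.0269), a call lost without WT 2, CKO 2, CKO 3 or CKO 4 (adjusted p up to 0.0696). Timp3 (0.32, adjusted p = 0.053), Mmp9 (0.57, adjusted p = 0.0897) and Timp1 (0.86, adjusted p = 0.117) did not pass, and Timp1 was spread over 203, 41.8, 129, 34.2 and 70.7 FPKM in CKO 1 to CKO 5.

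Proteins that bind collagen fibrils had the highest share of calls of the 5 lists. Of 14 tested, 7 were higher (50%, against 8.7% of all genes) and 0 lower (against 7.59%), with a median difference of 0.46. Dcn (decorin), a small proteoglycan that coats fibrils, lay at 116 to 247 FPKM in WT and at 1028, 960, 793, 958 and 720 in CKO, with no overlap (2.24, SE 0.17, limma adjusted p = 1.8e-05). Lum (lumican) held 131 to 193 FPKM in WT and 390, 550, 359, 338 and 342 in CKO (1.24, SE 0.14, adjusted p = 0.000238). Dpt (dermatopontin), which is also on the stromal fibroblast marker list, had 5.51 ± 4.61 and 23.5 ± 9.04 FPKM (2.10, SE 0.42, adjusted p = 0.00395), and Bgn (biglycan) had 255 ± 61.1 and 451 ± 118 (0.82, SE 0.19, adjusted p = 0.00958). Aspn, Ogn and Prelp had differences of 0.70, 0.59 and 0.52. Ogn lost its call without CKO 1 or CKO 4 (adjusted p up to 0.059), and Prelp without WT 1, WT 2, WT 4, WT 6, WT 7, CKO 2, CKO 3 or CKO 4 (up to 0.0694).

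Proteins with a collagen-like domain that fall outside the naming rule had 5 of 13 tested higher and 1 lower. These are 38.5% and 7.69%, against 8.7% and 7.59% of all genes. The complement genes C1qa, C1qb and C1qc, Msr1 (a scavenger receptor of macrophages) and Colec12 were higher, by 1.17, 1.28, 1.33, 1.05 and 0.75 on the log2 scale, and Colec12 lost its call without CKO 1 (adjusted p = 0.0541). Without CKO 1 and CKO 5, C1qa (adjusted p = 0.0789), C1qb (0.115), C1qc (0.0669) and Msr1 (0.0785) missed the limma threshold, and the 3 C1q genes also missed it in the exact Wilcoxon test (adjusted p = 0.0682 each). C1qc had 146 ± 80.8 FPKM in WT and 347 ± 107 in CKO. C1q and Msr1 are products of macrophages, whose markers summed to 28.5 to 76.5 FPKM in WT and 118 to 378 in CKO. The part of macrophages in these values was not tested. Gldn (gliomedin) was lower, at 1.51 to 6.16 FPKM in WT and 0.0833 to 0.56 in CKO. It entered the test only through the 7 WT libraries, so its call too is a description.

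**Figure D5:**
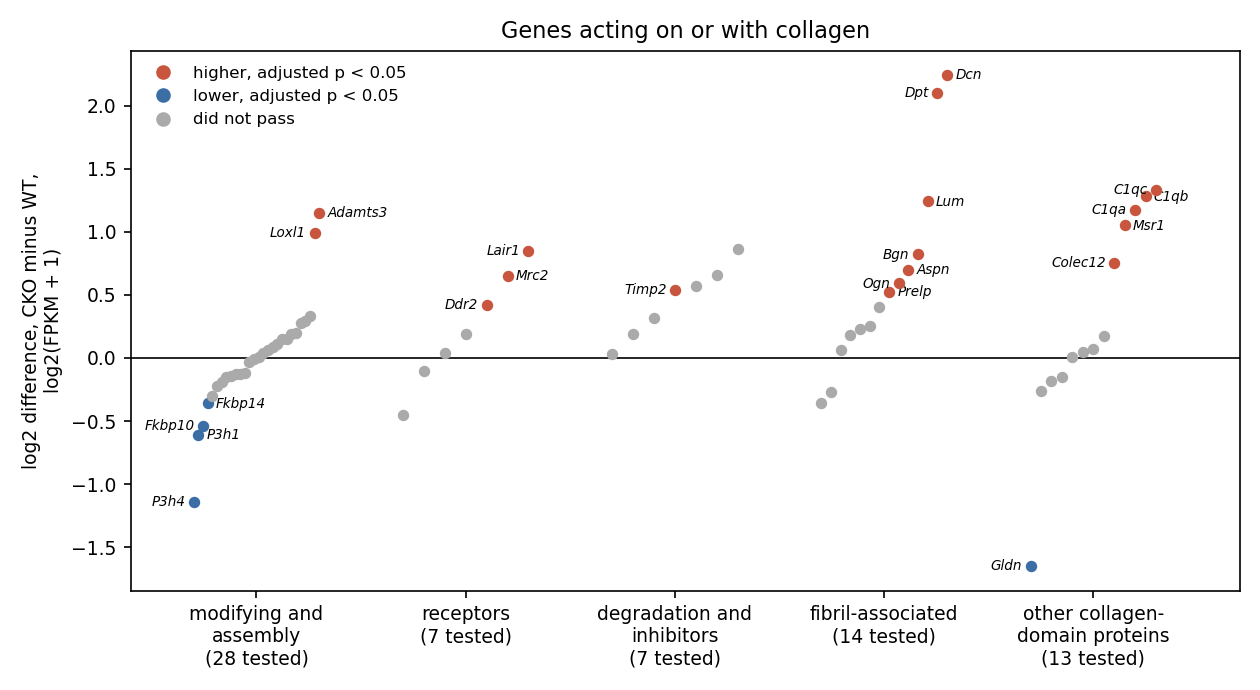
Log2 difference, CKO minus WT, on the log2(FPKM + 1) scale (vertical axis) for the tested genes of 5 lists that act on or with collagen, ordered by value within each list. Red points were called higher and blue points called lower (limma, threshold 0.05 after adjustment); the fibril-associated list has 7 of 14 genes in red, with Dcn at 2.24 and Dpt at 2.10.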

How the data were processed

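RNA of 12 ovary samples was analysed (7 WT, 5 CKO). Per the labels' protocols and the submitters' processing notes, reads were trimmed and mapped on mm10 (TopHat2 2.0.13), and the authors obtained normalized FPKM from Cufflinks 2.2.1 and group comparisons from Cuffdiff. The annotation, the kind of scaling and whether counting used strand are not given in these sources. The deposited table has a row per gene symbol with FPKM in 12 columns, besides a log2 ratio and the p-value and q-value of the authors' own test. By the values, its deposited log2 ratio is CKO over WT. 1 WT column has a name that fits the labels of more than 1 WT sample and is called the unnumbered WT library.

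FPKM are not counts, so values were tested as log2(FPKM + 1) with limma 3.58.1 in R 4.3.3 (two-sided, with a trended prior variance and a genotype term alone, Benjamini-Hochberg adjustment, threshold 0.05) for the 13168 genes with at least 1 FPKM in at least 5 libraries. Fold changes of low genes are understated on this scale. When tested on simulated data of 13168 genes with 200 changed, the fit found 76% of those changed by 1 and 93% of those changed by 2 (log2), and 6.63% of its calls were unchanged genes. Chain ratios and Mtor were tested with exact two-sided permutation tests, whose smallest possible p is 0.0013. Total fragment numbers are not given; relative depth came from the steps between low values of 572 genes with 1 annotated transcript, and fragment numbers given are estimates from it. Positions are from GENCODE M21 (GRCm38), and promoters from RefSeq.

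Values are printed for the chains that passed the test, the 4 most abundant of each class, chains without overlap between genotypes, the partners of called chains, and the 4 genes of each list with the smallest p; genes beyond these (Col23a1, Col4a3, Col4a4, Serpinh1 and Lox among them) were chosen after their values were seen. The members and lists were chosen with earlier results of these data known. The alternatives were 25 fits with other pseudocounts, filters, scalings, weights, tests or libraries.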

Additional observations from a re-analysis of the deposited data

Results flagged for a closer look

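In 4 of 56 groups of values (28 chains in 2 genotypes), 1 library lay far from the rest of its group by Dixon's test at the 95% level, which chance alone gives in about 1 of 20 groups, or 2.8 here. All 4 are WT libraries at the high end. Col9a2 was 9.28 FPKM in the unnumbered WT library, against 1.66 to 4.18 in the other 6, and Col3a1 was 83.9 FPKM in the same library, against 57.3 to 68.6. Col4a1 was 106 FPKM in WT 7 (68.5 to 83.9 in the others), and Col27a1 was 10.2 FPKM in WT 2 (5.78 to 7.29 in the others).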

How the results depend on the processing

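Col6a5 and Col6a4 passed the test in all 25 alternatives, Col18a1 in 23 of 25, Col8a2 in 22 of 25, Col9a2 in 17 of 24, Col11a1 in 9 of 24 and Col4a6 in 8 of 24. The count of chains higher in CKO, 4, became 7 with array weights, and it ranged from 3 to 7 in the leave-one-out fits. The count lower, 3, became 1 with the exact Wilcoxon test, with a mean of at least 5 FPKM and without CKO 1 and 5, became 0 without CKO 2 and 3, and ranged from 1 to 3 in the leave-one-out fits. The stricter filter left 18 chains in the fit. The number of chain ratios that differ, 0, was 0 to 5 in the leave-one-out tests, with 5 without WT 2. The genes of the 5 lists higher in CKO, 18, became 10 with the exact Wilcoxon test. Those lower, 5, became 3 with the Wilcoxon test, with the replicate block and without CKO 2 and 3, and ranged from 3 to 5 in the leave-one-out fits. Calls over all genes changed as well, from 1145 higher and 999 lower. They were 1216 and 1136 with array weights, 749 and 676 with the Wilcoxon test, and 832 and 681 (of 9539 genes) with the stricter filter. Without CKO 1 and 5 they were 702 and 673, and without CKO 2 and 3 they were 941 and 714. The leave-one-out fits gave 893 to 1200 higher and 737 to 1106 lower over all genes. The log2 ratio of Col4a2 to Col4a1 differed by 0.03, and by -0.05 to 0.08 in the leave-one-out tests and -0.10 without CKO 2 and 3. That of Col6a3 to Col6a1 differed by 0.08, and by -0.06 to 0.14 in the leave-one-out tests and -0.15 without CKO 1 and 5. None of these passed the test. The cause of these moves was not tested. Replicate numbers 1 to 4 occur in both groups, but same-numbered libraries correlated at only -0.03, 0.09, 0.04 and -0.07 in their deviations from the group means, and 3 of 8 libraries correlated best with their own number, so the numbers are not taken to pair the samples. With the replicate as a block, these 8 libraries gave 3 chains higher and 2 lower (756 and 622 over all genes), against 4 and 2 without the block (901 and 707).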
